A study of Mus musculus with 15 samples.

Results

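The Gimap genes encode GTPases of immunity-associated proteins, a family that in the mouse lies in a single cluster. Gimap1, Gimap4, Gimap5, Gimap6, Gimap8 and Gimap9 were followed here: 6 of 19296 genes measured, each read from the only probe set annotated with its symbol. RNA was measured on 15 Affymetrix mouse arrays of sorted bone marrow cells from C57Bl/6 mice, all labelled male: 3 arrays of old haematopoietic stem cells (HSC), 5 of young HSC, 3 of old granulocyte/macrophage progenitors (GMP) and 4 of young GMP. Old mice were 22 to 30 months and young mice 6 to 12 weeks old. HSC had been sorted as Lin-, c-Kit+, Sca-1+, Flk2-, CD48- and CD150+ cells and GMP as Lin-, c-Kit+, Sca-1-, CD34+ and Fc gamma receptor+ cells. Separate mice or pools are not named in the labels; the p-values below therefore reflect the spread among these arrays alone, and that spread may be technical.

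Gimap proteins bind guanine nucleotides through a conserved GTPase domain and many of them sit on intracellular membranes. They are best known from lymphocytes, where several members control whether a resting cell survives or dies. Gimap5 is the member most closely tied to stem cells: mice without functional Gimap5 lose lymphocytes and have impaired HSC. HSC are the long-lived multipotent cells of the marrow, and GMP are committed progenitors that give rise to neutrophils and monocytes.

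Marker genes went with the sorting labels. All 8 measured HSC markers, such as Mecom and Slamf1, were higher in HSC than in GMP at both ages. Of 10 GMP markers, 9 in old mice and 10 in young mice were lower in HSC. Slamf1 encodes CD150 and the GMP marker Fcgr3 encodes an Fc gamma receptor, both used in the sort, so these genes are not independent of it. Some arrays stood apart. Xist, the RNA of the inactive X chromosome, lay between 5.46 and 5.84 on the 6 old arrays but between 8.92 and 11.51 on 7 of the 9 young arrays, although all were labelled male. Y-linked genes (Kdm5d, Uty, Eif2s3y) averaged 4.94 and 5.20 on replicate 4 of young HSC and of young GMP, where the other arrays had 7.12 to 8.80. The interquartile range of all values on an array was 1.96 to 2.33 in old HSC, 2.21 to 2.69 in young HSC, 2.27 to 2.48 in old GMP and 2.13 to 2.60 in young GMP, lowest among young HSC on replicate 4. Results that rest on replicate 4 of the young groups are therefore given with and without it. Leaving it out does not remove the Xist difference, since young HSC replicates 2, 3 and 5 had 10.02 to 11.16. Among young arrays only replicate 1 was low, at 4.72 in HSC and 5.49 in GMP. Age and Xist signal thus largely go together, and their parts in differences between old and young cells cannot be told apart.

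The start regions of 4 members are shown because these genes differed most between the cell types (Gimap6 and Gimap5) or with age (Gimap1 and Gimap9), and because each holds GGAAGT, a core sequence recognised by ETS family factors, which include regulators of blood cell genes. The windows run from 250 bases before to 50 bases after the annotated start, on GRCm38.p6 in RefSeq, and were available for all 6 members. Matches of GGAAGT on either strand are in capitals, read 5′ to 3′ along the gene.
Gimap6, chr6:48708195-48708494, minus strand: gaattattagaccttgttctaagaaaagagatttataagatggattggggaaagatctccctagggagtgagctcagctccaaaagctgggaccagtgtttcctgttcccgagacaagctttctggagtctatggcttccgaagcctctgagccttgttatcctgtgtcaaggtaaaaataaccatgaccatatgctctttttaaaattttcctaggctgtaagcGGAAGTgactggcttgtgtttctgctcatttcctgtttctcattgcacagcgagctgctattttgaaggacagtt
Gimap5, chr6:48745947-48746246, plus strand: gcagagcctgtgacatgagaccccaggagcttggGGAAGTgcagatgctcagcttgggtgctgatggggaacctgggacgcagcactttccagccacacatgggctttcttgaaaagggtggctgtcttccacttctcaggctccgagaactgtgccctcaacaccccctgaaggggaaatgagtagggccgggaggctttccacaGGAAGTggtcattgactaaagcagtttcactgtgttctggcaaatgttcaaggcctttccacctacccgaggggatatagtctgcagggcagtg
Gimap1, chr6:48738797-48739096, plus strand: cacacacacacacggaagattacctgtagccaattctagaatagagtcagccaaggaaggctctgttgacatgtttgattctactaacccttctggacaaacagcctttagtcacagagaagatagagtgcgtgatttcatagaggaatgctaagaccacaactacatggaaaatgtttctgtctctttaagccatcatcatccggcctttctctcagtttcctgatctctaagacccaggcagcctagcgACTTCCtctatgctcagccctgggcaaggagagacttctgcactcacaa
Gimap9, chr6:48675885-48676184, plus strand: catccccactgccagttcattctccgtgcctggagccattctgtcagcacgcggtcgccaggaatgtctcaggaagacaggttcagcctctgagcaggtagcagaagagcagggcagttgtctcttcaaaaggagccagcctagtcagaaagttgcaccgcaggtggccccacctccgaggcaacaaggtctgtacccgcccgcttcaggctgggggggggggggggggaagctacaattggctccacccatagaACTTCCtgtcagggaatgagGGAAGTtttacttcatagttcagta

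In Gimap6 the match began 25 bases before the start. Gimap5 had matches 44 and 216 bases before it. In Gimap1 and Gimap9 the matches lay just after the start, 1 base after it in Gimap1 and 5 and 25 bases after it in Gimap9. Thus 4 of the 6 members held the sequence, as did 23.8% of 32851 start windows of mouse genes. The windows of Gimap4 and Gimap8 held none. TGTGGT, bound by RUNX factors, was found in the windows of Gimap1 and Gimap4 and in 16.8% of all windows, and AGATAA, bound by GATA factors, in 0 windows of the 6 members and 11.2% of all windows. These motifs were chosen with the sequences in view and no matches of different motifs overlapped. They describe the sequence and were not tested as binding sites.

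The first comparison asked how the family differs between stem cells and committed myeloid progenitors. Most members were higher in HSC. In old mice 5 of the 6 members were higher in HSC than in GMP, by 2.64-fold for Gimap4 to 11.8-fold for Gimap6, and Gimap9 missed the threshold. In young mice all 6 were higher, by 2.90-fold for Gimap9 to 19.9-fold for Gimap6. A gene was called at an adjusted p under 0.05 in limma, with Benjamini-Hochberg adjustment over all 19296 genes. Across those genes 9.25% were called higher and 13% lower in old HSC than in old GMP, and 13.6% higher and 10.9% lower in young HSC than in young GMP. The median difference of the 6 members was 1.67 log2 in old mice and 2.26 in young mice, against 0.02 in old mice and -0.05 in young mice over all genes. In sorted bulk samples like these, fewer cells with a transcript and less RNA per cell cannot be told apart.

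Gimap6, a member that binds the autophagy protein encoded by Gabarapl2, showed the widest separation. Its log2 values were 11.03, 10.77 and 11.29 on the old HSC arrays and 11.56, 11.70, 11.59, 11.59 and 11.68 on the young HSC arrays. They were 6.96, 7.34 and 8.11 in old GMP and 7.25, 7.14, 7.35 and 7.50 in young GMP. The lowest HSC array lay 2.65 log2 above the highest GMP array in old mice and 4.06 above it in young mice. The difference was 3.56 ± 0.21 log2 in old mice (SE, n = 3 each; limma adjusted p = 2.25e-10) and 4.31 ± 0.17 in young mice (n = 5 HSC and 4 GMP arrays; 4.00e-13). By size of the increase in HSC Gimap6 ranked 11 of 19296 genes in old mice and 3 in young mice.

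Gimap5, required in mice for lymphocyte survival and for normal HSC, followed. It had 6.90, 6.89 and 8.06 log2 in old HSC and 8.16, 7.79, 8.12, 7.21 and 8.34 in young HSC. The GMP arrays gave 4.28, 4.79 and 5.14 in old mice and 4.83, 4.51, 4.75 and 4.37 in young mice. All 7 GMP values lay below the lower quartile of their own array, while all 8 HSC values lay above it. The difference was 2.55 ± 0.30 log2, or 5.85-fold, in old mice (adjusted p = 2.56e-06) and 3.31 ± 0.24, or 9.91-fold, in young mice (3.51e-09). With such dim values in GMP the true fold is uncertain.

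Gimap1, needed in mice for the survival of mature T and B cells, was tightly grouped. Its values were 9.36, 9.59 and 9.91 log2 in old HSC and 10.35, 10.29, 10.44, 10.06 and 10.41 in young HSC. In GMP they were 7.79, 7.90 and 7.79 in old mice and 7.86, 7.88, 7.93 and 7.70 in young mice. The 7 GMP arrays thus lay within a narrow band, and every HSC array lay above them. The difference was 1.79 ± 0.14 log2 in old mice (3.47-fold; adjusted p = 1.65e-08) and 2.47 ± 0.12 in young mice (5.54-fold; 5.17e-12).

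Gimap4, a member described as modulating lymphocyte death, measured 7.71, 7.09 and 7.33 log2 in old HSC and 8.52, 7.83, 8.15, 7.24 and 8.12 in young HSC. Its GMP values were 6.22, 5.95 and 5.75 in old mice and 5.84, 5.86, 5.87 and 6.10 in young mice, all below the lower quartile of their array. The cell types did not overlap at either age. The difference was 1.40 ± 0.23 log2 in old mice (2.64-fold; adjusted p = 1.51e-04) and 2.06 ± 0.19 in young mice (4.16-fold; 9.56e-08).

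Gimap8, which unlike the other members carries several GTPase domains in 1 protein, measured 8.16, 8.20 and 8.63 log2 in old HSC and 8.48, 8.19, 8.34, 8.24 and 8.10 in young HSC. In GMP it measured 6.78, 7.10 and 6.46 in old mice and 6.60, 6.36, 6.78 and 7.10 in young mice. The gap between cell types was nearly the same at both ages. The difference was 1.55 ± 0.19 log2 in old mice (2.92-fold; adjusted p = 4.33e-06) and 1.56 ± 0.15 in young mice (2.95-fold; 2.09e-07).

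Gimap9 had the smallest separation. Its values were 8.49, 8.48 and 8.29 log2 in old HSC and 9.41, 9.40, 9.56, 7.87 and 9.54 in young HSC. In GMP they were 7.47, 7.02 and 7.98 in old mice and 7.90, 7.79, 7.23 and 7.55 in young mice. Young HSC replicate 4, at 7.87, fell inside the range of young GMP, and the other 4 young HSC arrays lay well above it. In old mice the difference was 0.93 ± 0.33 log2 (interval 0.23 to 1.62; adjusted p = 0.0510), which missed the threshold although all 3 old HSC arrays lay above all 3 old GMP arrays. Without young HSC replicate 4, which enters the shared estimate of the spread, the same difference had an adjusted p of 9.60e-04. In young mice it was 1.54 ± 0.27 (2.90-fold; adjusted p = 2.32e-04).

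**Figure D1:**
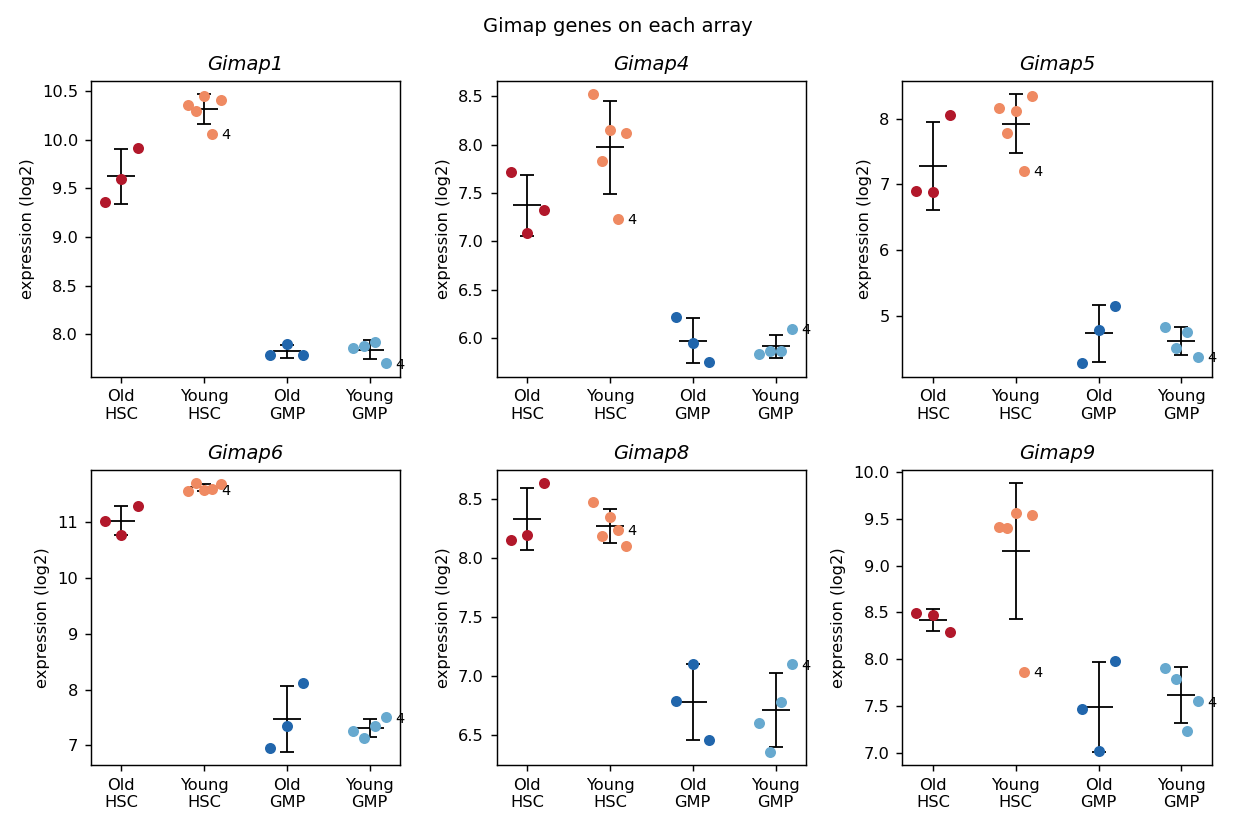
Log2 expression of each of the 6 Gimap genes (vertical axis, a separate scale per gene) on every array of old HSC, young HSC, old GMP and young GMP. Points are arrays, black lines are the group mean and SD, and replicate 4 of the young groups is numbered; HSC lie above GMP for every gene, except that Gimap9 on young HSC replicate 4 falls among young GMP.

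Counted over arrays, 6 of 6 members in old mice and 5 of the 6 in young mice had HSC values that did not overlap the GMP values and were higher, against 16.3% of all genes in old mice and 11.7% in young mice. The HSC-GMP calls of Gimap1, Gimap4, Gimap5, Gimap6 and Gimap8 held at both ages, and that of Gimap9 in young mice, whichever of the 15 arrays was left out. Without replicate 4 of both young groups 6 of 6 members were called at each age, with Gimap9 at 0.93 log2 in old mice (adjusted p = 0.00103) and 1.84 in young mice (2.05e-07). In the same fit 5161 of all 19296 genes were called in old mice, 2148 of them higher in HSC. In young mice 5094 were called, 2777 of them higher. Genes lower in HSC without overlap made up 18.4% of all genes in old mice and 9.51% in young mice, with 0 members among them.

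The second comparison asked what happens to the family in ageing stem cells. Gimap1 and Gimap6 were lower in old than in young HSC, by 1.61-fold and 1.51-fold. Thus 2 of 6 members were called, both lower, where 9.22% of all genes were called lower and 2.25% higher. Gimap4, Gimap5 and Gimap9 had log2 differences of -0.60, -0.64 and -0.74 but missed the threshold, and Gimap8 had a difference near 0. With the spread of values on each array (its interquartile range) in the model, 0 of 6 members were called. In that fit only 105 of all 19296 genes were called, 54 higher and 51 lower, so the count says little about the members in particular. The median of the 6 members was -0.62 log2, against 0.03 over all genes. The calls over all genes were mostly lower, 1779 against 434 higher; after quantile normalization they were 778 lower and 532 higher.

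For Gimap1 the 3 old HSC values, 9.36 to 9.91, all lay under the 5 young values, 10.06 to 10.44. Old HSC averaged 9.62 ± 0.28 and young HSC 10.31 ± 0.15 log2 (SD; 3 and 5 arrays), a difference of -0.69 ± 0.13 log2 (SE; adjusted p = 0.00418). The call was kept whichever array was left out, with adjusted p from 3.79e-04 to 0.0396, and after quantile normalization (difference -0.41, adjusted p = 0.0287). With each array's interquartile range in the model the call was lost (-0.50, adjusted p = 0.135). That range was narrower on old than on young HSC arrays, with overlap at young HSC replicate 4, and its part in the difference was not tested further.

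For Gimap6 the old values, 10.77 to 11.29, again lay under the young values, 11.56 to 11.70. The old arrays spread by 0.26 log2 (SD) around 11.03 and the young arrays by only 0.06 around 11.62. The difference was -0.59 ± 0.18 (adjusted p = 0.0427). This call lay close to the threshold. It was lost without any single one of 10 of the 15 arrays: old HSC replicates 1 and 2, young HSC replicates 1, 2, 3 and 5, old GMP replicate 2 and young GMP replicates 1, 2 and 3, with adjusted p from 0.0514 to 0.240. It was also lost after quantile normalization (-0.31, adjusted p = 0.275) and with the interquartile range in the model (-0.45, adjusted p = 0.543). Gimap1 and Gimap6 were the only members whose old and young HSC values did not overlap, 2 of 6, against 7.69% of all genes that lay lower without overlap and 5.1% that lay higher.

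Gimap5, Gimap4 and Gimap9 shared a single exception. Young HSC replicate 4 had 7.21 log2 for Gimap5, 7.24 for Gimap4 and 7.87 for Gimap9, where the other young HSC arrays ran from 7.79 to 8.34, from 7.83 to 8.52 and from 9.40 to 9.56. For these 3 members its level was closer to the mean of old HSC, and for Gimap9 it was below every old HSC array. For Gimap1, Gimap6 and Gimap8 its level was closer to the remaining young arrays. Without it 5 of 6 members were called lower: Gimap4 by -0.78 log2 (adjusted p = 0.00217), Gimap5 by -0.82 (0.0165), Gimap9 by -1.06 (5.09e-04), Gimap1 by -0.75 (3.79e-04) and Gimap6 by -0.60 (0.0260). In the same fit 5312 of all genes were called, against 2213 with all arrays. The part of sex-linked signal, or of the narrow range of values on that array, in its Gimap levels was not tested.

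Among old arrays replicate 3 was the exception for Gimap5. It stood at 8.06 log2, within the young range, while old HSC replicates 1 and 2 stood at 6.90 and 6.89. Without it the difference of Gimap5 was -1.03 (adjusted p = 0.0127). With all arrays the differences and their 95% intervals were -0.64 (-1.19 to -0.09; adjusted p = 0.111) for Gimap5, -0.60 (-1.03 to -0.16; adjusted p = 0.0672) for Gimap4 and -0.74 (-1.36 to -0.12; adjusted p = 0.104) for Gimap9. With each array's interquartile range in the model, the differences shrank to -0.00029 for Gimap5 (adjusted p = 0.9997), -0.11 for Gimap9 (0.947) and -0.35 for Gimap4 (0.703).

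Gimap8 stood aside from the other members. Old HSC averaged 8.33 ± 0.27 log2 (SD, n = 3) and young HSC 8.27 ± 0.14 (n = 5), with overlapping values. The difference was 0.06 with an interval of -0.29 to 0.41 (adjusted p = 0.829), and it was not called under any of the alternatives tried.

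**Figure D2:**
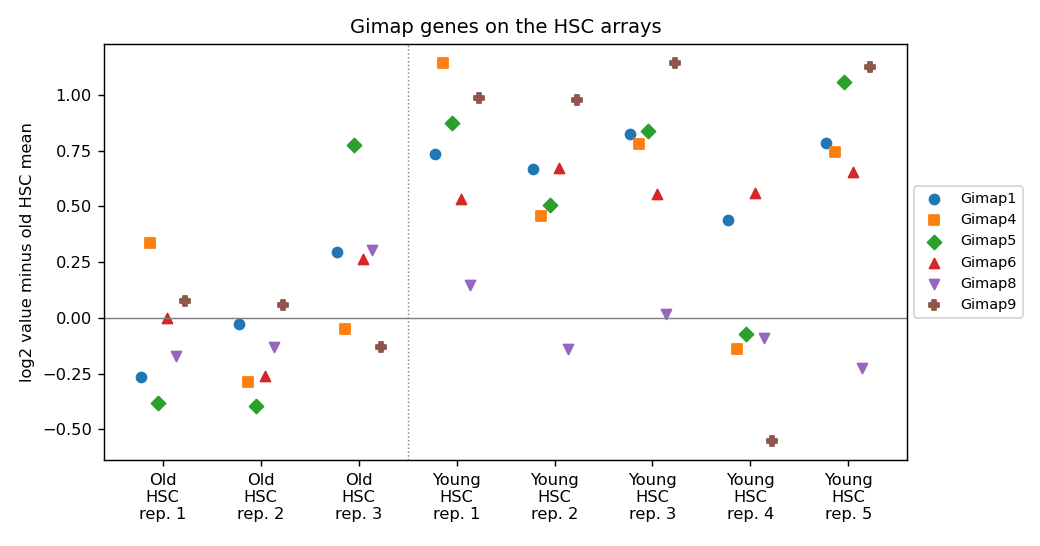
Log2 value of each Gimap gene minus its mean over the 3 old HSC arrays (vertical axis) on the 8 HSC arrays, with 1 marker shape per gene; the dotted line parts old from young arrays. Young HSC replicates 1, 2, 3 and 5 lie above 0 for every gene other than Gimap8, while on replicate 4 Gimap4, Gimap5, Gimap8 and Gimap9 lie below 0.

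The third comparison asked whether GMP show an age difference as well. Of the 6 members 0 were called in GMP, as were 0% of all genes, so the count says nothing particular about the members (limma; 0 of the members and 870 of all genes at an unadjusted p under 0.05). The interval of Gimap9, -0.78 to 0.52 log2, left room for its age difference in HSC, -0.74. Those of Gimap1, Gimap4, Gimap5 and Gimap6 did not reach the HSC difference of the same gene. A comparison of HSC with GMP needs the interaction test below. The largest difference was that of Gimap6, 0.16 log2 with an interval of -0.24 to 0.56. The narrowest interval was that of Gimap1, from -0.29 to 0.26 around -0.02. The difference of Gimap9 was -0.13, that of Gimap5 0.12, that of Gimap8 0.07 and that of Gimap4 0.06, and old and young GMP overlapped for all 6 members, whereas 3.72% of all genes lay lower and 3.1% higher in old GMP without overlap.

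Subtracting the age difference of GMP from that of HSC gave a negative value for all 6 members. Their median was -0.66 log2, against 0.02 over all genes. None of the 6 passed the interaction test in limma (0 called), where 0.0933% of all genes passed, 0.0674% lower and 0.0259% higher. At an unadjusted p under 0.05 were 3 of the members and 2165 of all 19296 genes. Gimap1 came nearest, at -0.67 ± 0.18 (SE; adjusted p = 0.217), followed by Gimap6 at -0.75 ± 0.27 (0.336). Gimap4, at -0.65 ± 0.30, was the other member with an unadjusted p under 0.05. Without young HSC replicate 4 Gimap1 passed (-0.74, adjusted p = 0.0472), and without replicate 4 of both young groups it did not (-0.69, adjusted p = 0.0684). Of all genes, fits with 1 array left out called 1 to 192, and the fit without both replicates 4 called 145. An age difference confined to HSC was thus not shown with all arrays.

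**Figure D3:**
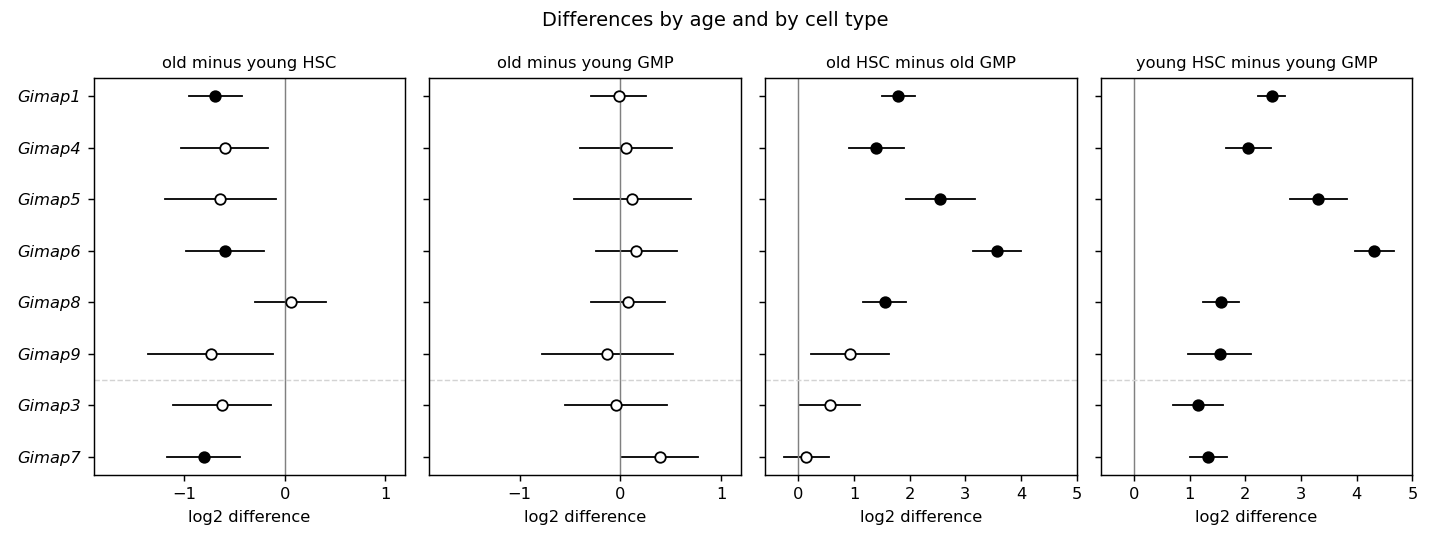
Log2 differences (horizontal axis) with 95% intervals from limma, left to right for old minus young HSC, old minus young GMP, old HSC minus old GMP and young HSC minus young GMP; filled points passed an adjusted p of 0.05. The 6 members are above the dashed line and Gimap3 and Gimap7 below it; HSC-GMP differences reach 4.31 for Gimap6 while the widest age difference is -0.80, for Gimap7 in HSC.

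Set in order, the mean level of Gimap1, Gimap4, Gimap5, Gimap6 and Gimap9 was highest in young HSC, then old HSC, with both GMP groups last. Old and young HSC did not pass the test of a difference for Gimap4, Gimap5 and Gimap9, nor did old HSC against old GMP for Gimap9. For Gimap8 old and young HSC were level above both GMP groups. Old and young GMP did not differ beyond their spread for any member.

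The family holds more measured genes than these 6. Gimap7 and Gimap3 were also on the array with 1 probe set each, and both lie in the same cluster on chromosome 6, whose order in the GRCm38.p6 gene table is Gimap8, Gimap9, Gimap4, Gimap6, Gimap7, Gimap1, Gimap5 and Gimap3. Gimap7 had 6.43, 6.26 and 6.60 log2 in old HSC and 7.38, 7.51, 7.06, 6.69 and 7.53 in young HSC. In GMP it had 6.42, 6.31 and 6.15 in old mice and 5.83, 6.20, 5.61 and 5.97 in young mice. Old and young HSC did not overlap, and it was lower in old HSC by 1.75-fold (-0.80 ± 0.17, SE; adjusted p = 0.00996). Its HSC minus GMP difference was 0.14 log2 in old mice (interval -0.27 to 0.54; adjusted p = 0.731), and in young mice it was higher in HSC by 2.52-fold (adjusted p = 2.36e-06). In the interaction test it had -1.20 ± 0.25 (adjusted p = 0.0871). Its age difference in GMP, 0.39 log2 (limma unadjusted p = 0.0431, not called after adjustment), is part of that value. All 4 young GMP values, 1 old GMP value and 1 old HSC value lay below the lower quartile of their array, so its true folds are uncertain.

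Gimap3, a close relative of Gimap5 in the mouse, had 6.02, 6.46 and 6.20 log2 in old HSC and 7.36, 7.27, 7.15, 6.37 and 6.09 in young HSC. In GMP it had 5.90, 5.56 and 5.53 in old mice and 5.62, 5.53, 5.65 and 6.01 in young mice. Young HSC replicates 4 and 5 lay within the old HSC range. The age difference was -0.62 ± 0.23 (adjusted p = 0.0837). Its HSC minus GMP difference was 0.57 log2 in old mice (adjusted p = 0.140), and in young mice it was higher in HSC by 2.21-fold (adjusted p = 3.87e-04), with all 7 GMP values below the lower quartile of their array. Whether probes of such closely related genes also read each other was not tested.

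The 3 nearest measured genes on each side of the cluster differed among themselves. On the Gimap8 side, AI854703, Zfp775 and Repin1, the last 2 zinc finger genes, had HSC minus GMP differences in young mice of 0.33, -0.17 and 0.41 log2, the first and the last of them called. Beyond Gimap3, Tmem176b and Tmem176a, which encode related membrane proteins, were higher in young HSC than in young GMP by 1.14 and 1.30 log2 (adjusted p = 4.06e-05 and 6.95e-06), and Aoc1, an amine oxidase gene, had -0.17. With age in HSC only Tmem176b of these 6 was called, at -0.73 ± 0.19 (adjusted p = 0.0207), with overlapping groups; Tmem176a had -0.34 (0.207).

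Lymphocytes and endothelial cells also express Gimap genes, so their markers were read on the same arrays. Of 12 measured T cell markers 1 was higher in HSC than in GMP at both ages, Lat, an adaptor of T cell receptor signalling that platelets and mast cells also use, by 2.15-fold in old mice and 4.16-fold in young mice. With age in HSC Lat was also the only 1 of 12 called, lower in old HSC by 1.60-fold (-0.68 ± 0.15; adjusted p = 0.0115). Cd3d and Cd3g, subunits of the T cell receptor complex, lay below the lower quartile on all 15 arrays. Cd3e ran from 7.20 to 7.90 log2 in old HSC, 6.79 to 7.22 in young HSC, 7.01 to 7.36 in old GMP and 7.02 to 7.49 in young GMP. The mean of the T cell list ran from 6.88 to 7.23 in old HSC, 6.84 to 7.03 in young HSC, 6.74 to 6.92 in old GMP and 6.66 to 6.94 in young GMP, and HSC and GMP overlapped at both ages. The part of T cell RNA in the Gimap levels was not tested.

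Of 7 B cell markers 0 were called in any of these comparisons, and the list mean ran from 6.30 to 6.47 in old HSC, 6.25 to 6.34 in young HSC, 6.25 to 6.46 in old GMP and 6.28 to 6.45 in young GMP. Cd22 and Cd79a, B cell surface proteins, had age differences in HSC of 0.32 and 0.26 log2. The B cell markers Cd79a, Ms4a1 and Ebf1 lay below the lower quartile on all 15 arrays. Of 8 NK cell markers 1 was higher and 1 lower in old HSC: the receptor gene Klrb1c rose 2.22-fold (1.15 ± 0.25) and the granule gene Nkg7 fell 1.52-fold (-0.61 ± 0.19). In HSC against GMP, Klrb1c was higher and Nkg7 and Klrk1 were lower at both ages. Ncr1, Gzma, Klrd1, Klrk1 and Eomes lay below the lower quartile on all 15 arrays, and Klrb1c did on all 7 GMP arrays. The differences of Klrk1 and the fold of Klrb1c are therefore uncertain. The mean of the NK list was 6.19 to 6.25 in old HSC, 5.91 to 6.18 in young HSC, 6.39 to 6.58 in old GMP and 6.45 to 6.60 in young GMP, lower in HSC than in GMP. Nkg7 had by far the largest difference, -3.76 log2 in old and -3.47 in young mice. The list median was -0.04 in old and -0.12 in young mice, and 5 of the 8 markers were not called at either age.

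Endothelial markers moved with cell type. Of 9, 6 in old mice and 5 in young mice were higher in HSC, and Pecam1, an adhesion gene picked out after its value was seen, was lower at each age (-0.81 log2 in old and -0.59 in young mice). Emcn, a surface sialomucin, was 5.66-fold higher in old HSC and 13.2-fold in young HSC, against dim values in old and young GMP (5.75 and 5.71 log2) that leave its fold uncertain. Tek, the angiopoietin receptor gene, was 5.66-fold higher in old HSC and 6.39-fold in young HSC. Its means in old and young GMP, 6.00 and 6.19 log2, lay below or among the lower quartiles of the arrays (6.10 to 6.43), so its fold is uncertain too. The von Willebrand factor gene Vwf was 2.76-fold higher in old HSC, and the adhesion gene Esam 3.09-fold in young HSC. These genes are also known HSC genes. The list mean was 7.78 to 7.98 log2 in old HSC, 7.78 to 8.17 in young HSC, 6.85 to 7.01 in old GMP and 6.83 to 7.01 in young GMP, with 0 of 9 markers below the lower quartile on all HSC arrays; its part in the Gimap levels was not tested. With age in HSC, Emcn alone was called, lower by 2.27-fold (-1.18 ± 0.20; adjusted p = 0.00291), and the list median was -0.01.

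**Figure D4:**
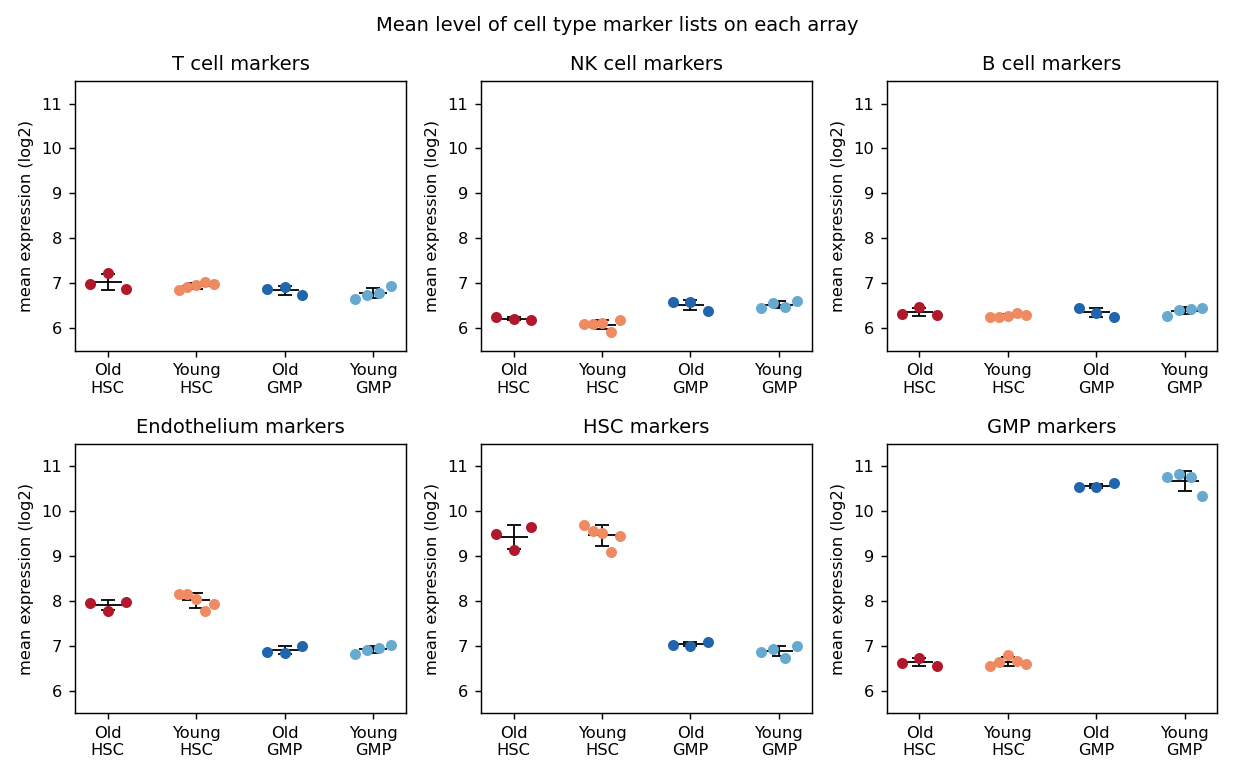
Mean log2 expression of 6 marker lists (vertical axis, 1 scale for all panels) on each array of old HSC, young HSC, old GMP and young GMP, with group mean and SD in black. T cell and B cell lists overlap between HSC and GMP. The mean of the NK cell list is lower in HSC, with Nkg7 by far the largest difference. The means of the endothelial and HSC lists are higher in HSC.

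Of 10 lymphoid progenitor genes, which mark the step from stem cells to lymphocytes, 3 were lower in old HSC and 1, Dntt, was higher (0.46 log2; Dntt was picked out after its value was seen). The Dntt means, 5.45 log2 in old and 4.99 in young HSC, lay below the lower quartile of every array (6.10 at the lowest). Its old and young values overlapped and its call lay close to the threshold (limma adjusted p = 0.0489), so a rise is uncertain. Those lower were the cytokine gene Ltb by 1.92-fold, the chromatin organiser gene Satb1 by 1.89-fold and Flt3, which encodes Flk2, by 1.62-fold. HSC were sorted as Flk2- cells, so the differences of Flt3 are not independent of the sort. Against GMP, Ltb was higher in HSC by 2.46-fold in old and 5.09-fold in young mice, Satb1 was lower by 5.57-fold in old and 2.94-fold in young mice, Flt3 was 1.67-fold lower in old HSC but 1.61-fold higher in young HSC (adjusted p = 4.05e-04 and 9.94e-05), and Cd27 was 1.72-fold higher in young HSC.

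Among partner and survival genes, 2 of 17 measured were lower and 1 higher in old HSC (median -0.13 log2). Gabarapl2, whose product binds Gimap6, was 1.82-fold lower (-0.86 ± 0.22; adjusted p = 0.0185), and Bcl2l1, an inhibitor of apoptosis, was 1.42-fold lower (-0.50 ± 0.14; 0.0301). Bcl2, another inhibitor of apoptosis, was 1.33-fold higher (0.42 ± 0.12; 0.0286). Between cell types 3 of 17 were higher and 3 lower in old HSC, and 6 higher and 4 lower in young HSC. Gabarapl1, an autophagy gene, was higher in HSC by 2.31-fold in old and 2.70-fold in young mice, and Bcl2l1 and the autophagy gene Map1lc3b were higher in young HSC by 1.99-fold and 1.80-fold. The cell death genes Bak1 and Bid were lower in old HSC than in old GMP, 2.14-fold and 1.88-fold.

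Another family of immune GTPases, those induced by interferon, was also higher in HSC. Of 10 measured, 7 in old and 8 in young mice were higher than in GMP, and 1, Gbp3, was lower (-0.79 log2 in old and -0.60 in young mice; picked out after its values were seen). Iigp1 was 9.87-fold higher in old HSC and 13.1-fold in young HSC. Gbp4 was 6.21-fold higher in old and 6.88-fold in young HSC, and Gbp8 5.31-fold in old and 6.95-fold in young HSC. In old and young GMP these genes averaged 5.76 and 5.70 log2 (Iigp1), 5.08 and 5.29 (Gbp4) and 5.78 and 5.80 (Gbp8), below the lower quartile of every array (6.10 at the lowest), so their true folds are uncertain. With age in HSC 0 of 10 were called; Gbp5 and Gbp8 had differences of -0.51 and -0.41 log2 (adjusted p = 0.0887 and 0.280), and the list median was -0.35.

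Members also varied among arrays of the same group. Over the 15 arrays, with group means removed, the correlation between 2 members ran from -0.33 for Gimap8 and Gimap9 to 0.81 for Gimap1 and Gimap5. Genes outside the family whose pattern was most like the mean of the 6 members over all 15 arrays were Fam110c (Pearson r = 0.995), the zinc finger gene Plag1 (0.993), the transcriptional coactivator gene Eya2 (0.992), the cytokine gene Il18 (0.991), the endocytic scaffold gene Itsn1 (0.991) and the protein kinase gene Prkcq (0.990). These values rest mostly on the step between HSC and GMP, since HSC and GMP form separate clusters. Over the 8 HSC arrays alone the closest were Erlec1 (0.994), the prion protein gene Prnp (0.991), Bet1l (0.990) and the Ikaros family gene Ikzf5 (0.987). Of the 6 genes chosen over 15 arrays, Plag1 had an age difference in HSC of -0.74 log2 and Il18 of -0.75. Of the 4 chosen over HSC arrays, Prnp had -0.74 and Bet1l -0.43. These genes were picked for following a mean that is itself lower in old HSC, so their age differences are a description that the choice largely fixed.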

How the data were processed

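RNA of double-sorted cells was amplified with a Nugen WTA kit, per the labels' protocols. The deposited values were log2 expression per probe set; RMA, affy and limma appear in the submitters' processing notes, with no version given. The log2 scale was read from the values. The genome build is not given in the sources used here. The table held 23309 probe sets on 15 arrays; 20728 had 1 gene symbol, 1174 several and 1407 none, and only the first kind was used, with the brightest probe set per gene (19296 genes). The number of arrays limits the precision of every value.

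limma 3.58.1 in R 4.3.3 estimated 4 group means from all 15 arrays, moderated by empirical Bayes, with Benjamini-Hochberg adjustment over all genes. The fit was tested on simulated data with independent noise on each array. That simulation held no pairing and no array-wide change in spread, so it cannot judge calls that depend on these. Differences are old minus young or HSC minus GMP, and errors are SE unless SD is written. Alternatives were quantile normalization, the interquartile range as a covariate, all probe sets averaged, dim genes left out, trend and robust moderation, only the groups compared, each array left out, replicate 4 of both young groups left out, and replicate blocks. Deviations of young HSC and young GMP arrays with the same replicate number had r from 0.161 to 0.525 over genes (4 pairs). Some arrays with different numbers had r of similar size. Young HSC replicate 2 had 0.247 with young GMP replicate 1, and old HSC replicate 2 had 0.442 with young GMP replicate 4. For the same number in old mice the lowest r was 0.05, and across ages it fell to -0.275. Sex-linked signal also went with the number in young mice. Xist and the Y-linked mean were 4.72 and 8.80 in HSC and 5.49 and 8.61 in GMP for replicate 1. They were 11.16 and 7.12 against 10.51 and 7.20 for replicate 2, and 10.02 and 8.47 against 8.92 and 8.28 for replicate 3. Replicate 4 had 11.51 and 4.94 against 10.95 and 5.20. Whether young arrays of the same number share mice is not in the labels and was not tested. The r values alone do not settle whether arrays are paired, and the main fit used no pairs.

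Named were all Gimap genes, the 3 nearest measured neighbours on each side, the genes most like the members' mean (6 over 15 arrays, 4 over HSC arrays), and per list up to 3 called genes by size, or 2 where none was called. The members and lists were chosen with earlier results of these data known. Genes of a list that were not measured are left out of its counts.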

Additional observations from a re-analysis of the deposited data

Results flagged for a closer look

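The level of Gimap9 on young HSC replicate 4, 7.87 log2, lay far below the other young HSC arrays; its gap to the next array was 0.902 of the whole range of the group. The level of Gimap4 on young GMP replicate 4, 6.10 log2, lay above the other young GMP arrays in the same way, with a gap of 0.858 of the range. Both values belong to replicate 4, the arrays with little Y-linked signal. Of 12 sets of values tested, 6 members in each young group, these 2 stood out, and chance gives about 1 in 20.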

How the results depend on the processing

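HSC against GMP was stable: apart from Gimap9 in old mice, each member kept its direction and call at both ages in all 15 fits that left out 1 array and under every other alternative in which it was tested; the filter on dim genes left Gimap5 out. Gimap9 in old mice passed in 2 of those 15 fits and in 7 of 9 other alternatives.

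Age in HSC depended on the model. It gave 1310 called genes with 1 member after quantile normalization, 105 with 0 members with the interquartile range as covariate, 871 genes with only the groups compared, and 6183 with 5 members without replicate 4 of both young groups. Leaving out 1 array gave 345 genes (without old HSC replicate 2) to 5312 (without young HSC replicate 4), and 1 to 5 members. The replicate block, although numbers pair no samples across ages, gave 6280 genes and 5 members; a block within age, chosen after seeing the data, changed no member's HSC-GMP call in young mice. For age in GMP the called genes numbered 232 with the replicate block, 188 without both replicates 4, and 0 to 12 with 1 array left out. The interaction called 5 genes with the covariate, 41 with the block, 145 without both replicates 4, and 1 to 192 genes and 0 to 1 member with 1 array left out.

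Differences near 0 changed sign. For age in GMP, Gimap1 was 0.041 after quantile normalization and 0.021 with the covariate, and with the replicate block Gimap4 was -0.030 and Gimap5 -0.023. Gimap8 was -0.038 for age in HSC with the covariate and 0.16 in the interaction after quantile normalization. With 1 array left out, Gimap8 ran from -0.095 to 0.14 for age in HSC and from -0.18 to 0.15 in the interaction. For age in GMP the ranges were -0.061 to 0.013 for Gimap1, -0.065 to 0.17 for Gimap4, -0.084 to 0.35 for Gimap5, -0.16 to 0.42 for Gimap6, -0.088 to 0.23 for Gimap8 and -0.37 to 0.11 for Gimap9. The cause was not tested. Dim signals limit Gimap4 and Gimap5 in GMP.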
